A study of Mus musculus with 6 samples.

Results

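The enzymes and transporters that carry glucose through glycolysis, the bisphosphoglycerate shunt and the pentose phosphate pathway were followed in sorted mouse cells. The labels call these cells erythroblasts, the nucleated precursors of red cells. The gene list names 35 symbols, and a probe set (a group of short probes on the array that reads a transcript) belongs to it when the platform annotation gives it 1 of these symbols alone. This gave 63 probe sets of 31 genes, out of 22626 tested probe sets that name 12393 genes. Gapdh was read by its own control probe sets only, which stayed out of the test, and Gpi1, Eno1 and G6pdx were not analysed here.

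The cells were sorted from FVB/N bone marrow on CD71, the transferrin receptor, and each of 6 total RNA samples was read on 1 Affymetrix array. The wild type group has 3 samples without the transgene named in the labels. The mutant RPS19 group has 3 samples from mice with a transgene for RPS19 carrying the change R62W, a protein of the small ribosomal subunit that is often mutated in Diamond-Blackfan anaemia. The sources used here do not give the promoter of the transgene or the age and sex of the mice. Nor do the labels state whether each sample was a different mouse, so p-values measure only how far these samples spread, which may be technical in part.

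The maturing red cell loses its mitochondria and then lives on glycolysis, which supplies its ATP and the NADH that keeps haemoglobin reduced. Red cells also divert an intermediate of glycolysis through bisphosphoglycerate mutase into bisphosphoglycerate, which lowers the affinity of haemoglobin for oxygen. The pentose phosphate pathway branches off glucose-6-phosphate and yields the NADPH used against oxidants, as well as ribose for nucleotides. Several steps have tissue isoforms, and pyruvate kinase of the red cell comes from Pklr, whereas most white cells use Pkm.

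Values are log2 RMA values as deposited, and a difference is the mutant mean minus the wild type mean on that scale. Past an adjusted p under 0.05 (limma over all 22626 probe sets, Benjamini-Hochberg), 7 of the 63 member probe sets differed, 4 higher and 3 lower in the mutant. They belong to 4 genes. Bpgm rose on all 3 of its probe sets and Pdk1 on 1 of 2, while Pklr fell on 2 of 3 and Slc2a3 on 1 of 4. Among all tested probe sets 2.33% were called, 0.941% higher and 1.39% lower. Probe sets of a gene read the same RNA, so the 7 are not independent, and with 1 probe set per gene 0 of 31 members were called against 0.331% of all genes. At an unadjusted p under 0.05 (limma) the same fit gave 7 of 31 members and 17.4% of all genes.

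Most of the pathway did not move one way. Over the 63 member probe sets the median difference was -0.02, with 31 higher and 32 lower, and over all probe sets it was -0.01. The mutant and wild type arrays did not overlap for 20 member probe sets, 10 higher and 10 lower. The same held for 26.1% of all probe sets, 11.4% higher and 14.7% lower.

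**Figure D1:**
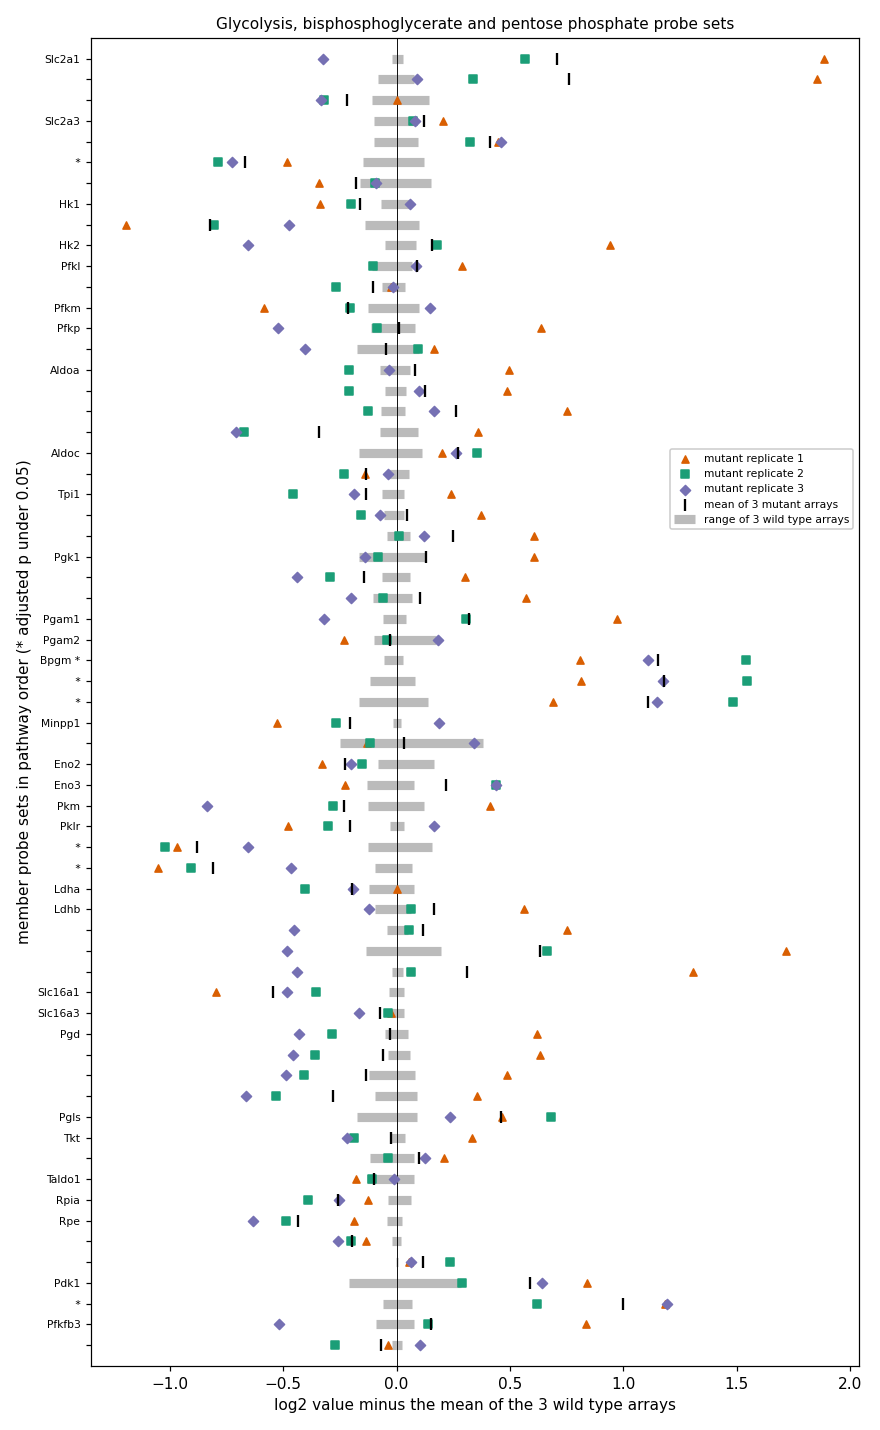
Each row is a member probe set in pathway order, and the horizontal axis is its log2 value minus the mean of the 3 wild type arrays. Grey bars span the 3 wild type arrays, coloured symbols are the 3 mutant arrays, black ticks their mean, and asterisks mark an adjusted p under 0.05; Bpgm lies to the right on every mutant array, whereas mutant replicate 1 (triangles) often lies opposite to the others.

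Agreement between arrays was tighter in wild type than in the mutant, which bears on every member. The SD of the log2 difference between a pair of arrays was 0.14 to 0.19 within wild type and 0.34 to 0.50 within the mutant. Pairs of a wild type and a mutant array gave 0.38 to 0.43, which lies inside the range within the mutant. Among the 63 member probe sets 56 had a larger SD over mutant than over wild type arrays, against 76.7% of all probe sets. Mutant replicate 1 was the highest of the 6 arrays for 31 member probe sets, or 49.2%, against 21.5% of all probe sets. Its median difference from the wild type mean over the member probe sets was 0.30, against -0.11 for mutant replicate 2 and -0.14 for mutant replicate 3. Mutant replicate 3 also read 5.78 for Xist, which females transcribe from the inactive X, and 8.34 for the Y-linked Eif2s3y, while the other arrays read 11.38 to 12.07 and 2.23 to 2.45. Its RNA therefore did not come from the same animal or animals as that of mutant replicates 1 and 2.

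Markers of other marrow cells were read alongside the erythroid ones. Of the erythroid markers, Tfrc (wild type mean 12.14), Klf1 (11.64) and Slc4a1 (11.56) were bright; they encode CD71, an erythroid transcription factor and the red cell anion exchanger. Hba-a1, an alpha globin gene, read only 3.16 on the brightest probe set annotated to it alone. Probe sets that name several genes were not used for the markers, so this value need not give the level of alpha globin RNA. Neutrophil granule genes were bright as well, with Mpo at 13.12 and S100a9 at 12.16 in wild type. The summed level of 10 neutrophil genes, as log2, was 14.94 to 15.04 in wild type and 15.62, 14.49 and 14.03 on mutant replicates 1, 2 and 3. The 11 erythroid genes summed to 14.10 to 14.19 in wild type and 13.55, 14.23 and 14.26 in the mutant samples. The 9 B cell genes summed to 9.53 to 9.66 and to 9.69, 11.69 and 10.65. For 11 macrophage genes the sums were 11.51 to 11.68 in wild type and 11.75, 11.66 and 10.83 over mutant replicates 1, 2 and 3. For 6 megakaryocyte genes they were 8.79 to 8.84 and 9.75, 9.05 and 9.10, and for 6 T and NK cell genes 8.49 to 8.66 and 9.46, 8.24 and 8.08. Of the neutrophil genes 2 had a higher and 8 a lower mutant mean, and of the B cell genes 8 were higher and 1 was lower. Of the erythroid genes 3 were higher and 8 lower, and of the macrophage genes 1 was higher and 10 lower. The megakaryocyte genes had 6 higher and 0 lower, and the T and NK cell genes 3 higher and 3 lower. The only called markers were Hbb-b2, a beta globin gene (0.75 higher), and Vwf, of megakaryocytes (1.48 higher). In RNA from a sorted population, fewer cells of a type and less RNA per cell cannot be told apart. The part of each cell type in the member values was not tested, so these need not be values of erythroblasts alone.

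**Figure D2:**
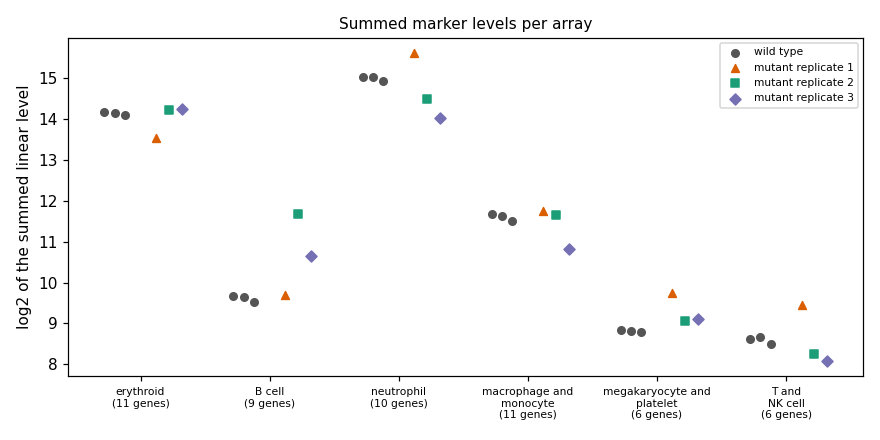
The vertical axis is the log2 of the summed linear level of each marker list, with grey circles for the 3 wild type arrays and coloured symbols for each mutant array. Mutant replicate 1 has the highest neutrophil sum (15.62) and the lowest erythroid sum (13.55), and mutant replicate 2 the highest B cell sum (11.69).

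Glucose enters the cell through the facilitative transporters GLUT1, encoded by Slc2a1, and GLUT3, encoded by Slc2a3. The brightest Slc2a1 probe set read 5.87, 5.82 and 5.83 in wild type and 7.72, 6.41 and 5.51 in the mutant samples. Mutant replicate 1 was far above all others, mutant replicate 3 was below the wild type arrays, and the difference of 0.71 ± 0.48 (SE, adjusted p = 0.48) fell to 0.12 without mutant replicate 1. The second Slc2a1 probe set was also highest on mutant replicate 1, with 7.39, 5.87 and 5.62 against 5.45 to 5.61 (0.76 ± 0.42, adjusted p = 0.38). The dimmest went the other way, with 4.92, 4.59 and 4.58 against 4.80 to 5.06 (-0.22 ± 0.13, adjusted p = 0.42).

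The probe sets of Slc2a3 differed from each other. The brightest read 7.50 to 7.68 in wild type and 7.67 to 7.81 in the mutant (0.12 ± 0.097, adjusted p = 0.57), and the next 5.63 to 5.83 and 6.06 to 6.19 (0.41 ± 0.098, adjusted p = 0.078). The dim probe set 1421924_at fell, from 3.99, 3.90 and 3.73 to 3.39, 3.09 and 3.15, a difference of -0.67 ± 0.12 (95% confidence interval -0.95 to -0.38, adjusted p = 0.041). Its call ended without any 1 wild type array (adjusted p = 0.13 to 0.22) and without mutant replicate 2 (0.12) or 3 (0.059), as well as under repeated quantile normalisation (0.067). On the mean of all 4 probe sets the difference was -0.08 (adjusted p = 0.67), so no direction is given for the gene.

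Hexokinase traps glucose as glucose-6-phosphate, and Hk1 is its main red cell form. The brightest Hk1 probe set read 9.65, 9.60 and 9.52 in wild type and 9.25, 9.39 and 9.65 in the mutant samples (-0.16 ± 0.12, adjusted p = 0.54), with overlapping groups. On the other, 1420901_a_at, all mutant values (7.12, 7.51 and 7.84) lay below all wild type values (8.41, 8.36 and 8.17). That difference was -0.82 ± 0.18 (adjusted p = 0.067) and passed without mutant replicate 1 (-0.64, adjusted p = 0.026) and without mutant replicate 3 (adjusted p = 0.026). Hk2, an inducible hexokinase, read 7.87, 7.74 and 7.73 in wild type and spread from 8.72 through 7.95 to 7.13 over mutant replicates 1, 2 and 3, so the mutant arrays lay on both sides (0.15 ± 0.35, adjusted p = 0.86).

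Phosphofructokinase, the committed step of glycolysis, has a liver (Pfkl), a muscle (Pfkm) and a platelet (Pfkp) subunit. Pfkl differed by 0.09 ± 0.12 on its brighter probe set, with 7.61, 7.64 and 7.46 against 7.86, 7.46 and 7.66. Pfkm read 9.25, 9.17 and 9.02 in wild type and 8.56, 8.94 and 9.29 in the mutant samples (-0.21 ± 0.18), lowest on mutant replicate 1. Pfkp went the other way over the same arrays, with 7.64, 6.91 and 6.48 against 7.08, 7.03 and 6.89 (0.01 ± 0.27). None of these 3 probe sets passed (adjusted p of 0.59 or above), and the sign of Pfkl and Pfkp changed without mutant replicate 1 (-0.0095 and -0.30).

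Aldoa, the main aldolase, was read by 4 probe sets with differences from -0.34 to 0.26, all highest on mutant replicate 1 (8.59 to 10.09). Without that array the dimmest of them fell by 0.69 (adjusted p = 0.0077), while the brightest differed by -0.12 (adjusted p = 0.49). The brain aldolase Aldoc was dim, at 4.76 ± 0.15 in wild type and 5.03 ± 0.079 in mutant samples (SD, n = 3 each) on its brighter probe set (adjusted p = 0.23, limma).

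Between the aldolases and pyruvate kinase no probe set of a glycolytic enzyme passed the test on all 6 arrays. Tpi1, which interconverts the triose phosphates, differed by 0.05 ± 0.15 on its brightest probe set, and Pgk1, the first step that regains ATP, by 0.13 ± 0.21. All 3 probe sets of each were highest on mutant replicate 1, which for the brightest Pgk1 probe set read 10.86 there, 10.18 on mutant replicate 2, 10.12 on mutant replicate 3 and 10.09 to 10.39 in wild type. Pgam1, the phosphoglycerate mutase, read 9.15, 8.48 and 7.86 on the mutant arrays around a wild type range of 8.12 to 8.22 (0.32 ± 0.29, adjusted p = 0.61). Pgam2 and Eno2, muscle and nerve isoforms, were dim, with group means from 2.84 to 4.04. The muscle enolase Eno3 read 5.15, 5.18 and 4.97 in wild type and 4.88, 5.54 and 5.54 in the mutant samples, and it was called only when mutant replicate 1 was left out (0.44, adjusted p = 0.036).

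The control probe sets of Gapdh, which makes the NADH of glycolysis, read different parts of its transcript. The 3' set read 11.90, 11.89 and 11.75 in wild type and 11.94, 11.43 and 11.52 in the mutant samples (exact permutation p = 0.4, two-sided). The 5' set read 11.95, 11.96 and 11.84 against 11.68, 11.17 and 11.21 (exact permutation p = 0.1, the smallest that 3 arrays against 3 allow). Each mutant array was therefore lower at the 5' end, and less so or not at the 3' end. The excess of the 3' over the 5' set came to -0.07 ± 0.019 for wild type and to 0.27 ± 0.032 for mutant samples (SD, n = 3 each, exact permutation p = 0.1). A larger 3' excess is a sign of shorter RNA or shorter labelled product, and its part in the other probe sets was not tested.

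Pyruvate kinase closes glycolysis, and its red cell isoform Pklr was lower in the mutant on 2 of 3 probe sets. Probe set 1421258_a_at read 7.26, 7.07 and 6.97 in wild type and 6.13, 6.08 and 6.45 in the mutant samples. All mutant arrays lay below all wild type arrays, with a fall of 0.88 ± 0.13 on the log2 scale (95% confidence interval -1.19 to -0.57), or 1.84-fold (adjusted p = 0.026). Probe set 1421259_at read 6.58, 6.70 and 6.74 against 5.62, 5.77 and 6.20, again without overlap, and fell by 0.81 ± 0.16 (adjusted p = 0.0499). The brightest, 1438711_at, read 7.56, 7.53 and 7.50 against 7.05, 7.23 and 7.69, and mutant replicate 3 lay above the wild type arrays (-0.21 ± 0.16, adjusted p = 0.56). The mean of all 3 differed by -0.63 (adjusted p = 0.098). Leaving out any wild type array or mutant replicate 2 ended both calls, with adjusted p from 0.081 to 0.24, and repeating the quantile normalisation (adjusted p = 0.057) or median centring (0.055) ended that of 1421259_at.

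Pkm, the isoform of most other cells, showed another pattern. It read 8.73, 8.62 and 8.48 in wild type and 9.03, 8.33 and 7.78 on mutant replicates 1, 2 and 3, above wild type on the first and below on the others. The difference was -0.23 ± 0.28 (adjusted p = 0.71). Pkm fell from array to array in the same order as the neutrophil sum (15.62, 14.49 and 14.03). The macrophage sum (11.75, 11.66 and 10.83) and the T and NK cell sum (9.46, 8.24 and 8.08) fell in that order too. The part of these sums in the result was not tested.

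Pklr has an upstream promoter known for use in erythroid cells and a downstream one known from liver. The 250 bases before the upstream start are shown because Pklr fell, with capitals marking matches to AGATAA, the core bound by GATA factors. They lie at chr3:89135892-89136141 on the plus strand of GRCm38.p6, taken from RefSeq, and the match ends 30 bases before the first transcribed base.
Pklr upstream promoter: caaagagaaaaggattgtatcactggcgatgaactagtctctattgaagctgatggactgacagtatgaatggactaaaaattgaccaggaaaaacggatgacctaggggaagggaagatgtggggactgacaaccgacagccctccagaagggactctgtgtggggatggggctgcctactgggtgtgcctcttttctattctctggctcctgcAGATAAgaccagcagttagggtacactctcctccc
AGATAA was present on either strand in 9.99% of all 32851 promoter windows of this length and in 4 of the 43 windows of the members. A match describes the letters, and the arrays do not tell which Pklr promoter was used.

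The bisphosphoglycerate shunt held the largest difference among the 63 member probe sets. Bpgm, whose enzyme makes bisphosphoglycerate from 1,3-bisphosphoglycerate, was read by 3 probe sets that gave nearly the same difference. The brightest, 1415865_s_at, read 8.57, 8.57 and 8.49 in wild type and 9.36, 10.08 and 9.66 in the mutant samples. Every mutant array lay above every wild type array, mutant replicate 2 highest, and the mean rose by 1.15 ± 0.18 (95% confidence interval 0.74 to 1.57), which is 2.22-fold (adjusted p = 0.028). Probe set 1415864_at rose from 7.78, 7.73 and 7.58 to 8.51, 9.24 and 8.87, by 1.18 ± 0.18 or 2.26-fold (adjusted p = 0.028). Probe set 1448119_at rose from 6.89, 6.78 and 6.58 to 7.44, 8.23 and 7.89, by 1.11 ± 0.20 or 2.15-fold (adjusted p = 0.039).

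The size of the Bpgm difference held when arrays were left out, whereas its call did not. It ran from 0.96 to 1.32 on the brightest probe set over the leave-outs, and without mutant replicate 1 the adjusted p was 0.0034. Leaving out wild type replicate 1, 2 or 3 gave adjusted p from 0.15 to 0.16, and the fit with 1 probe set per gene gave 0.053. The call of 1448119_at also ended without mutant replicate 2 (0.088) or 3 (0.058). The order of the mutant arrays, replicate 2 above 3 above 1, was also that of the B cell sum (11.69, 10.65 and 9.69). On mutant replicate 1 that sum lay close to the wild type range (9.53 to 9.66). The brightest Bpgm probe set read 9.36 on the same array, against 8.49 to 8.57 in wild type. The erythroid sum was also lowest on mutant replicate 1 (13.55), against 14.23 on mutant replicate 2, 14.26 on mutant replicate 3 and 14.10 to 14.19 in wild type. The part of the B cell and erythroid sums in the Bpgm result was not tested.

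The promoter of Bpgm is shown because the gene changed most. It covers chr6:34476106-34476355 on the plus strand of GRCm38.p6, from RefSeq, and none of the 4 motifs searched on both strands occurs in it. These were AGATAA, the motif CCACCC known from KLF factors, and ACGTG as well as GCGTG, the cores known from hypoxia-inducible factors.
Bpgm promoter: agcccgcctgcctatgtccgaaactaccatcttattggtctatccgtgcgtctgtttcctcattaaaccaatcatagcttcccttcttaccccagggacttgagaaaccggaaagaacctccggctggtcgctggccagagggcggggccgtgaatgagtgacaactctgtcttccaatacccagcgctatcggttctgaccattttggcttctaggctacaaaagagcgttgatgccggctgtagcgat
Of all windows, 28.1% hold CCACCC, 16.6% hold ACGTG and 28.2% hold GCGTG, each motif counted on its own also where matches overlap. Among the 43 member windows the counts were 19, 14 and 21. No binding was measured here.

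Minpp1, a phosphatase that can also remove a phosphate from bisphosphoglycerate, did not follow Bpgm. Its brighter probe set read 10.89, 10.90 and 10.92 in wild type and 10.38, 10.64 and 11.09 in the mutant samples, on both sides of the wild type arrays (-0.20 ± 0.17, adjusted p = 0.59). The other differed by 0.03 ± 0.20.

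**Figure D3:**
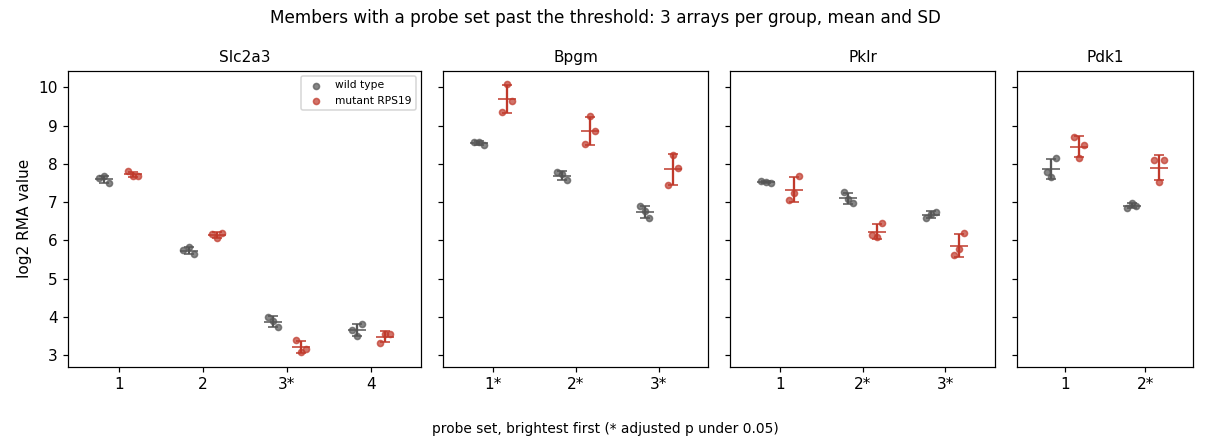
The vertical axis is the log2 RMA value of every probe set of the 4 genes with a called probe set, brightest first, with 3 points per group and the mean and SD (grey wild type, red mutant RPS19). The 3 Bpgm probe sets stand higher in the mutant on every array, Pklr is lower on both of its probe sets that carry an asterisk, and the Slc2a3 probe sets differ in direction.

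Lactate dehydrogenase turns pyruvate into lactate and regenerates the NAD of glycolysis. Ldha read 10.35, 10.31 and 10.15 in wild type and 10.27, 9.87 and 10.08 in the mutant samples (-0.20 ± 0.13, adjusted p = 0.46). Ldhb, the heart isoform, was highest on mutant replicate 1 on all 4 probe sets. Probe set 1434499_a_at spread most, from 7.19 through 6.13 to 4.99 over mutant replicates 1, 2 and 3 against 5.34 to 5.67 in wild type (0.63 ± 0.48, adjusted p = 0.54).

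Lactate leaves the cell through MCT1, encoded by Slc16a1, which was bright and lower on every mutant array. It read 11.33, 11.26 and 11.30 in wild type and 10.50, 10.94 and 10.82 in the mutant samples, without overlap. The difference of -0.54 ± 0.13 (95% confidence interval -0.84 to -0.24) missed the threshold (adjusted p = 0.077) and passed it without mutant replicate 1 (-0.42, adjusted p = 0.032). Bsg, the chaperone that brings MCT1 to the membrane, fell from 10.77, 10.75 and 10.58 to 9.51, 9.96 and 10.08, by 0.85 ± 0.16 (adjusted p = 0.043). Slc16a3, the MCT4 gene of glycolytic tissues, was dim and differed by -0.07 ± 0.090.

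The oxidative branch of the pentose phosphate pathway was represented by Pgls and Pgd. Pgls, the lactonase, read 9.26, 9.27 and 9.003 in wild type and 9.64, 9.86 and 9.41 in the mutant samples, higher on each mutant array (0.46 ± 0.14, adjusted p = 0.14). Pgd, which makes NADPH in the next step, read 9.96, 9.92 and 9.87 on its brightest probe set against 10.53, 9.63 and 9.49, far above on mutant replicate 1 and below on the others (-0.03 ± 0.26, adjusted p = 0.97). On its other 3 probe sets too, mutant replicate 1 lay above and mutant replicates 2 and 3 below all wild type arrays, and without mutant replicate 1 they fell by 0.41, 0.45 and 0.60 (adjusted p = 0.034, 0.035 and 0.014).

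The non-oxidative branch rearranges sugars between pentoses and glycolysis. Tkt, the transketolase, was the brightest member, at 12.80, 12.75 and 12.73 in wild type and 13.09, 12.57 and 12.54 in the mutant samples (-0.02 ± 0.16, adjusted p = 0.96). Taldo1, the transaldolase, differed by -0.10 ± 0.10, with overlapping values of 11.14 to 11.35 and 11.09 to 11.26. Rpia and Rpe interconvert the pentose phosphates, and the Rpia probe set and the brighter 2 of 3 Rpe probe sets were lower on every mutant array. Rpia read 10.56, 10.46 and 10.47 against 10.37, 10.11 and 10.25 (-0.26 ± 0.10, adjusted p = 0.23). The brightest Rpe probe set read 8.74, 8.73 and 8.68 against 8.53, 8.23 and 8.08 (-0.44 ± 0.13, adjusted p = 0.13), and it passed without mutant replicate 1 (-0.56, adjusted p = 0.014). The dimmest Rpe probe set lay near the bottom of the scale and was slightly higher on every mutant array, with 2.70, 2.88 and 2.71 against 2.64 to 2.65 (0.12 ± 0.094, adjusted p = 0.56).

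Of the regulators, Pdk1 rose. It encodes a kinase that inactivates pyruvate dehydrogenase and so holds back the use of pyruvate in the mitochondria. Probe set 1423748_at read 6.85, 6.98 and 6.90 in wild type and 8.09, 7.53 and 8.10 in the mutant samples. No mutant array reached down to a wild type value, and the mean rose by 0.998 ± 0.16 (95% confidence interval 0.61 to 1.38, adjusted p = 0.033). The brighter probe set read 7.79, 7.66 and 8.15 against 8.70, 8.15 and 8.51, with groups that just did not overlap (0.59 ± 0.18, adjusted p = 0.14). Leaving out wild type replicate 1, 2 or 3 ended the call (adjusted p = 0.16 to 0.18), and the mean of both probe sets differed by 0.79 (adjusted p = 0.080). Pfkfb3, which makes the activator of phosphofructokinase, read 4.90, 4.74 and 4.84 in wild type and 5.66, 4.96 and 4.31 over mutant replicates 1, 2 and 3 (0.15 ± 0.30, adjusted p = 0.84).

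The upstream of 2 Pdk1 promoter windows is shown because Pdk1 is known as a target of hypoxia-inducible factors. It covers chr2:71872974-71873223 on the plus strand of GRCm38.p6, from RefSeq. Capitals mark GGGTGG, the reverse complement of CCACCC, 171 to 176 bases before the start, and GCGTG at 74 to 78 bases before it.
Pdk1 upstream promoter: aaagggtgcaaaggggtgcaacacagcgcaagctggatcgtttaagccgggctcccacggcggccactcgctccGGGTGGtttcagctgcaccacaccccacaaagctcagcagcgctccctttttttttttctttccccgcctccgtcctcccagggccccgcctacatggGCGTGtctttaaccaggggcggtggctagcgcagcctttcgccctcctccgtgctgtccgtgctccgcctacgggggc
Both motifs are common in windows of this length (28.1% and 28.2%), and the match is a description of the letters only.

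The mutant arrays differed in which members were high. Without mutant replicate 1, 15 of the 63 member probe sets were called, 5 higher and 10 lower, from 10 genes, and all 7 of the first calls were among them. The same comparison called 11.2% of all probe sets, 5.98% higher and 5.27% lower. The added genes were Hk1, Aldoa, Eno3, Slc16a1, Pgd and Rpe. Mutant replicate 1 was the highest of the 6 arrays for all probe sets of Aldoa, Tpi1, Pgk1, Pgam1, Pkm, Ldhb, Pgd, Tkt, Hk2 and Pfkp. It was the lowest for 12 member probe sets, or 19%, against 28.2% of all probe sets. These were both of Hk1, 2 of 3 of Pklr, the brighter of Minpp1 and a dim one of Slc2a3. The others were those of Pfkm, Slc16a1, Taldo1, Pgam2, Eno2 and Eno3. That array also had the lowest erythroid marker sum and the highest neutrophil, macrophage, megakaryocyte and T and NK cell sums of the 6 arrays, and the part of those in these values was not tested.

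**Figure D4:**
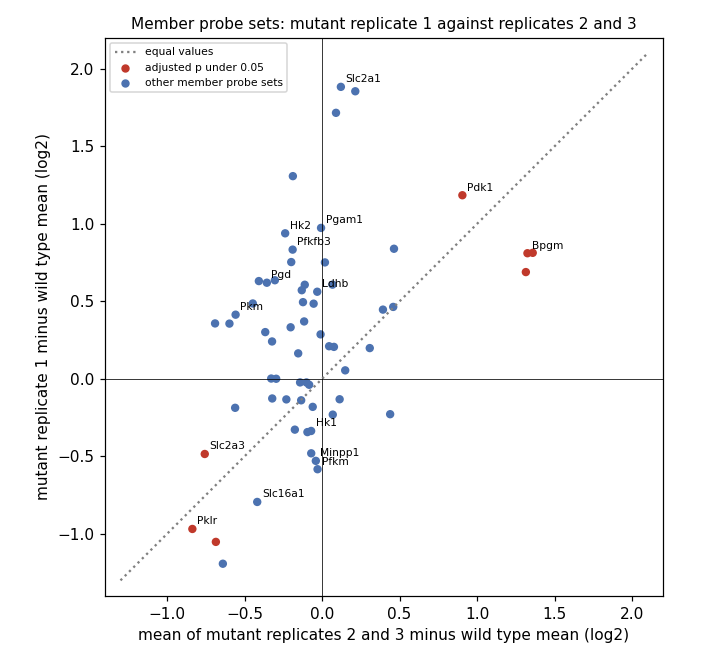
Each point is a member probe set, with the mean of mutant replicates 2 and 3 minus the wild type mean on the horizontal axis and mutant replicate 1 minus the wild type mean on the vertical axis, both log2. Red points (adjusted p under 0.05) lie on the same side of 0 on both axes, whereas the labelled Slc2a1, Hk2, Pgam1, Pkm and Pgd points lie above 0 for replicate 1 and well above the dotted line.

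Neighbouring genes of carbohydrate metabolism were read from 4 lists, in which 4 of 129 probe sets of 79 measured genes were called, 1 higher and 3 lower, against 2.33% of all probe sets. Of 34 probe sets for other isoforms and regulators 1 was lower, that of Bsg, and Fbp2, a fructose bisphosphatase, differed by -0.48 (adjusted p = 0.096). Of 35 for pyruvate and glycerol metabolism 1 was higher. This was Gpd2, the mitochondrial glycerol phosphate dehydrogenase, which rose from 7.38, 7.31 and 7.39 to 8.32, 7.90 and 7.92, by 0.68 ± 0.13 (adjusted p = 0.047), while Dld, shared by the mitochondrial dehydrogenase complexes, differed by -0.31 (adjusted p = 0.15). Of 18 for glycogen metabolism 0 were called (2 at an unadjusted p under 0.05, limma, as for 19.1% of all probe sets), with Pgm2 at -0.37 and the dimmest probe set of Ugp2 at -0.45. The brighter Ugp2 probe sets differed by -0.05 to 0.13. Of 42 for hypoxia and other regulators 2 were lower. Vhl, which marks hypoxia-inducible factors for degradation, fell by 0.56 ± 0.10 (adjusted p = 0.043) on a dim probe set (5.13, 5.03 and 5.03 against 4.36, 4.62 and 4.53). Txnip, an inhibitor of glucose uptake, fell from 7.60, 7.59 and 7.37 to 6.93, 7.01 and 6.72, by 0.63 ± 0.12 (adjusted p = 0.044), while its brighter probe set differed by 0.12 (adjusted p = 0.70). The 4 neighbour calls lay just under the threshold (adjusted p = 0.043 to 0.047, limma), and their leave-out values are not given here. Leaving out a wild type array cut the calls among all probe sets from 528 to between 36 and 48.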

How the data were processed

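The 6 Affymetrix arrays were deposited as log2 values, which the authors computed by RMA, per the submitters' processing notes, which name GCOS and Affymetrix Expression Console. RMA corrects the background, quantile normalises and summarises probes per probe set, so it fixes the overall level of each array; the notes give no versions. Of 22690 probe sets, 64 controls were left out, and 20380 of the rest carry 1 gene symbol in the platform annotation, 691 several and 1555 none.

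The group difference was fitted in R 4.3.3 by limma 3.58.1, using lmFit and then eBayes with no covariates; p-values are two-sided and adjusted by Benjamini-Hochberg over all 22626 probe sets. Single values used an exact permutation test. The fit was tested on simulated data with equal SD in both groups, which does not cover the larger spread of the mutant arrays. The members and lists were chosen with earlier results of these data known. Every measured member may be named, with values on every array for called members and a fixed set; of the neighbour lists, called genes and those of lowest p are named. Replicate numbers do not pair the samples (correlations of deviations 0.051, 0.028 and 0.055). Alternatives covered the variance prior, weights, normalisation, filters, probe set choice and left-out arrays. The number of arrays limits the precision.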

Additional observations from a re-analysis of the deposited data

How the results depend on the processing

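The number of called member probe sets (7 of 63, with 528 called among all) was 0 to 15 when 1 array was left out, and 36 to 2544 among all; the 0 came from leaving out any wild type array (12 to 13 at an unadjusted p under 0.05, limma), the 15 from leaving out mutant replicate 1, with 3 without mutant replicate 2 and 6 without mutant replicate 3. Array weights gave 11 and 2667, and an adjusted p under 0.10 gave 10 and 1386. A filter on dim probe sets gave 6 of the 51 member probe sets left and 600 among all, median centring 6 and repeated quantile normalisation 5. Members had 0 calls with 1 probe set per gene (41 among all genes) and with the mean of the probe sets of each gene (47). The plain t-test also gave 0 (81 among all probe sets). At an unadjusted p under 0.05 these fits gave 7 genes (limma), 7 genes (limma) and 15 probe sets (plain t-test). The replicate number as a block, a pairing that the labels do not state, also gave 0 members and 112 among all. That fit gave 13 members at an unadjusted p under 0.05 (limma), with 3857 among all. The mutant minus wild type difference in the Gapdh 3' excess was 0.34 over the 5' set and 0.28 over the middle probe set. Differences near 0 changed sign: Pfkp with array weights (-0.12), repeated quantile normalisation (-0.032), the mean of probe sets (-0.019) and left-out arrays (-0.30 to 0.27); Pfkl with array weights (-0.044), the mean (-0.0064) and left-out arrays (-0.0095 to 0.19); Pgd with quantile normalisation (0.013) and left-out arrays (-0.36 to 0.17); Tkt with quantile normalisation (0.078), the mean (0.038) and left-out arrays (-0.20 to 0.073); the brightest Slc2a3 probe set with the mean (-0.078). On left-out arrays alone, Ldhb (-0.031 to 0.31), Pfkfb3 (-0.19 to 0.49), Hk2 (-0.24 to 0.56) and Pkm (-0.56 to 0.067) changed sign. The cause was not tested. Probe sets near the bottom of the scale, such as the called one of Slc2a3, lie close to background.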
